A study of Stylophora pistillata with 18 samples.

Results

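The cyclic dinucleotides 3'3'-cUA and 2'3'-cGAMP were set against each other directly in the stony coral Stylophora pistillata, through the polyadenylated RNA of adult tissue. The comparison takes the 12 of the 18 RNA-seq libraries that received a compound, chosen by their labels: 6 with 3'3'-cUA (called cUA here) and 6 with 2'3'-cGAMP (called cGAMP). All were wild-type specimens of 2 adult colonies, kept for 18 h in seawater holding 250 µM of 1 compound, with 3 specimens per compound and colony. The 6 remaining libraries, from specimens of the same colonies in seawater without a compound, give the background level of each gene. Libraries are named by compound, colony and specimen letter, so that cUA 2A is the first colony 2 specimen with cUA.

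Cyclic dinucleotides are small second messengers. In animals cGAS and its relatives, the cGAS-like receptors, make them after binding nucleic acid, and they bind the receptor STING, which in vertebrates turns on interferon and inflammatory genes. 2'3'-cGAMP, of guanine and adenine, is the product of vertebrate cGAS. 3'3'-cUA carries uracil in place of guanine, and its linkages are alike where those of 2'3'-cGAMP are mixed, so effects of the base and of the linkage cannot be told apart with this 1 pair of compounds. Dose and time were matched, but how much of either compound entered the tissue was not measured here.

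The deposited values are read counts per gene model. Totals ran from 24307409 to 34361709 with cUA, from 22175801 to 28033513 with cGAMP and from 27090845 to 41800393 in seawater. Levels below are CPM, the counts of a model relative to the library total, scaled by TMM factors that correct for library composition. The files give the models no product names, and the symbols that could be matched were LOC numbers except for Cglr2. Each model can therefore be described by its position, structure and level but not by a role, and lists of pathway and cell type marker genes could not be counted. The tissue label could not be checked against markers for the same reason. Models are on scaffolds of the deposited annotation, whose genome build is not given in the sources used here.

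Library cUA 2A stood apart from the others. Its composition factor among the 12 libraries was 0.642, against 0.883 to 1.23 in the other cUA libraries and 0.910 to 1.02 with cGAMP. Its 50 most abundant models held 24.4% of its counts. The mean distance of cUA 2A to the other 11 libraries, as the root mean square difference in log2 CPM over models, was 1.34, where it was 0.918 to 1.12 for the others. cUA 2C and cGAMP 1A also had high shares in their 50 most abundant models, 22.7% and 22.3%, against 16.1% to 19.5% in the rest. The counts of calls, the named models and the results by set below are therefore given with and without cUA 2A.

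The libraries did not sort by compound. On the first 2 principal axes of log2 CPM, with 32.1% and 25.3% of the variance, cUA 2C lay beside cGAMP 2A and 2B, and cUA 1C lay beside cUA 2B of the other colony. cGAMP 2C lay nearer the colony 1 cGAMP libraries than the other colony 2 ones. cUA 2A lay alone at the end of the second axis.

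**Figure D1:**
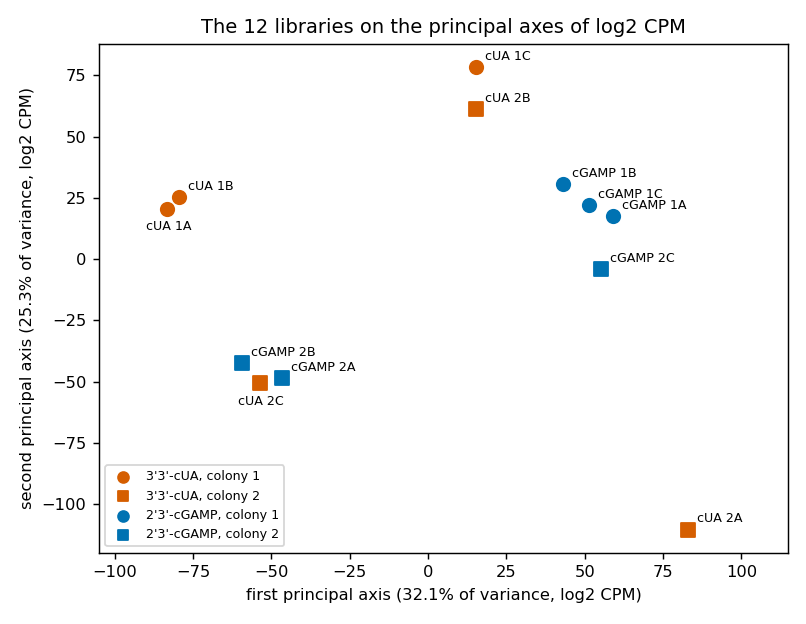
Positions of the 12 libraries on the first 2 principal axes of log2 CPM, labelled by colony and specimen letter, with the share of variance on each axis; colours mark the compound. The compounds intermix, and cUA 2A lies at 82.9 on the first axis and -110 on the second, away from the other 11.

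Over all tested models, the compound accounted for 10.7% of the variation between libraries once colony was taken out. This separation did not exceed the spread between specimens (pseudo-F 1.25, exact permutation of compound labels within colonies with no direction, p = 0.225 over 400 arrangements, where 0.005 is the smallest possible). Without cUA 2A the share was 17.8% and the test again did not pass (pseudo-F 1.99, exact permutation p = 0.1 over 200 arrangements). In colony 1 alone the compound accounted for 49.7%, with a pseudo-F of 3.95 and an exact permutation p of 0.1, the smallest that 3 against 3 libraries allow. In colony 2 alone it accounted for 17.9% (pseudo-F 0.875, exact permutation p = 0.8).

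Specimens with cUA differed more among themselves than specimens with cGAMP. The common biological coefficient of variation, the relative spread between specimens beyond counting error, was 0.480 with cUA, 0.405 with cUA but without 2A, 0.343 with cGAMP and 0.465 in seawater. These coefficients are descriptions and their difference was not tested. Pairs of cUA specimens lay at a mean distance of 0.778 in colony 1 and 1.31 in colony 2, and pairs of cGAMP specimens at 0.673 and 0.959. Pairs that differed in compound lay at 1.02 in colony 1 and 1.12 in colony 2. In colony 2 a cUA specimen was thus on average farther from another cUA specimen than from a cGAMP specimen, and the sole colony 2 pair without cUA 2A was at 1.19.

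Model by model, none of the 20371 tested models differed between the compounds over all 12 libraries by edgeR's quasi-likelihood test with colony as covariate (0% called at an adjusted p below 0.05, smallest adjusted p = 0.232). At an unadjusted p below 0.05 there were 1128 models higher with cUA (5.54%) and 611 higher with cGAMP (3%), 1739 together, where 1019 are expected if no model differs. DESeq2 called 151, of them 122 higher with cUA and 29 higher with cGAMP, limma-voom called 0, and limma-voom with sample weights called 1622 (795 and 827). That last method gave cUA 2A a weight of 0.184 and cGAMP 1B a weight of 3.59. In bulk tissue a lower level can mean fewer cells of a type or less RNA per cell, and these cannot be told apart in any result below.

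Without cUA 2A, edgeR called 215 of 20796 models (1.03%). Of these 116 were higher with cUA (0.558%) and 99 higher with cGAMP (0.476%), and at an unadjusted p below 0.05 there were 2068 (9.94%) and 1711 (8.23%). By other methods the count was 1699 with DESeq2, 2484 with weighted and 230 with unweighted limma-voom, and it was 45 by edgeR with the seawater libraries in the fit. The 215 also depended on which further library was left out. Among colony 1 libraries this gave 0 calls without cUA 1A, 1 without cUA 1B, 6 without cUA 1C, 1 without cGAMP 1B and 0 without cGAMP 1C, and 65 without cGAMP 1A. For colony 2 the counts were 16 without cUA 2B, 1242 without cUA 2C, 43 without cGAMP 2A, 338 without cGAMP 2B and 104 without cGAMP 2C. Scaling changed the balance of the calls, which was 116 to 99 with TMM, 151 to 91 with upper quartile factors and 333 to 97 with total counts alone. Of the 151 models that DESeq2 called with all libraries, 66 were among the 215, which is 43.7% of the first list and 30.7% of the second.

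**Figure D2:**
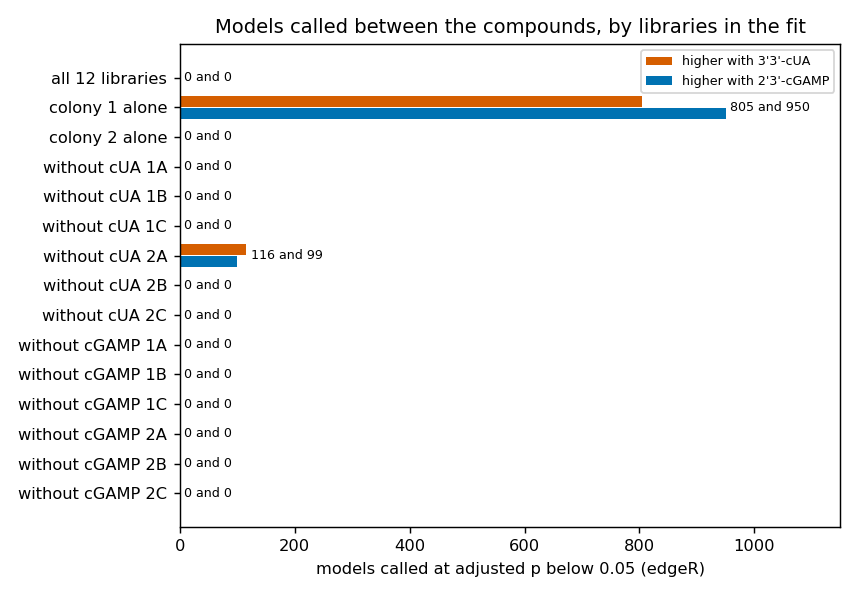
Number of models called by edgeR at an adjusted p below 0.05, on the horizontal axis, for each set of libraries in the fit; the upper bar of a pair counts models higher with cUA and the lower bar models higher with cGAMP. All 12 libraries gave 0 in both directions, as did leaving out any single library but cUA 2A (116 and 99), and colony 1 alone gave 805 and 950.

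The size of difference that these libraries could have missed varied with abundance. Over all 12 libraries the median absolute log2 fold change was 0.23, and the median width of the unadjusted 95% interval to each side was 0.66. The interval lay wholly within a 2-fold difference for 11266 models (55.3%), and for 11013 (53.0%) without cUA 2A. That share was 9.70% for models below 1 CPM, 44.7% from 1 to 10 CPM, 79.7% from 10 to 100 CPM and 75.7% above 100 CPM. Without cUA 2A it was 7.13%, 42.8%, 78.2% and 74.7%. For the other models, apart from the few named next whose interval lay wholly beyond it, a 2-fold difference in at least 1 direction lies inside the interval, so they are not shown to respond alike. Differences were also simulated, in a single draw per fit with 200 models changed. With all 12 libraries edgeR recovered 12% of those set to 1 on the log2 scale and 76% of those set to 2. Without cUA 2A it recovered 20% and 69%. Simulated counts were drawn independently for each model and library, without a shift of a whole library such as that of cUA 2A. The recovered shares hold for that setting and are not the power of the real comparison. At the other end, over all 12 libraries, 25 models had an interval wholly beyond 2-fold, 20 higher with cUA and 5 higher with cGAMP, and without cUA 2A there were 118, 54 and 64. These intervals are not adjusted for the number of models.

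Groups that did not overlap at all were rare. All 6 cUA libraries lay above all 6 cGAMP libraries for 62 of the 20371 models (0.304%), and below them for 30 (0.147%). Without cUA 2A these counts were 345 (1.66%) and 266 (1.28%).

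The models described next are those with the smallest p in each direction and fit, 25 in all, with 16 from each fit and 7 in both. None was called over all 12 libraries by edgeR (adjusted p from 0.232 to 0.908), and 23 were called without cUA 2A. No other annotated model overlapped the span of any of the 25. For 5 of them the groups did not overlap with all 12 libraries: LOC111321647 and LOC111325265, higher with cUA, and LOC111325533, LOC111323461 and LOC111325840, higher with cGAMP.

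LOC111321647 (Spis_XP_022780323_1) had the smallest p over all 12 libraries. It is a single coding segment of 1230 bases on the minus strand of scaffold NW_019217813.1, from 1039348 to 1040577. With cUA it stood at 26.1, 28.4 and 26.7 CPM in colony 1 and at 24.4, 25.5 and 16.1 CPM in colony 2. With cGAMP it stood at 10.6, 10.5 and 9.87 CPM in colony 1 and at 12.1, 12.1 and 7.19 CPM in colony 2. Every cUA library lay above every cGAMP library in both colonies, cUA 2A included, and the lowest cUA library was 2C. The log2 fold change of cUA over cGAMP was 1.23 ± 0.19 (SE, edgeR adjusted p = 0.232), and 1.22 ± 0.18 without cUA 2A, where it was called (adjusted p = 0.0246). Over the alternatives the difference lay between 1.07 and 1.39, with adjusted p-values from 4.09e-06 to 1.00. Seawater libraries ran from 10.8 to 64.9 CPM with a median of 39.8, so 5 of the 6 lay above both compounds and control 1A fell among the cGAMP values.

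LOC111345418 (Spis_XP_022808428_1, 5 coding segments on the minus strand of NW_019218652.1, 8560 to 10283) had the next smallest p among models higher with cUA. Its levels with cUA were 41.2, 18.3 and 33.8 CPM in colony 1 and 14.6, 23.1 and 14.6 CPM in colony 2. With cGAMP they were 17.3, 8.91 and 7.59 CPM and then 6.09, 3.62 and 6.43 CPM. Within each colony all cUA libraries lay above all cGAMP libraries, while cGAMP 1A lay above the lowest colony 2 cUA libraries. On the log2 scale cUA exceeded cGAMP by 1.58 ± 0.28 (SE, adjusted p = 0.232), and 1.62 ± 0.29 without cUA 2A (adjusted p = 0.0321). Seawater ran from 31.1 to 97.6 CPM, with only cUA 1A and 1C inside that range.

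LOC111325265 (Spis_XP_022784781_1, 19 coding segments on the plus strand of NW_019217853.1, 625420 to 648521) was more abundant. It ran from 70.6 to 125 CPM with cUA, median 78.8, and from 27.9 to 59.2 CPM with cGAMP, median 38.1. Seawater lay higher again, from 83.7 to 229 CPM with a median of 131. By median, seawater, cUA and cGAMP stood in this order in all 3 of these models, and the log2 fold change between the compounds was 1.16 ± 0.22 here (adjusted p = 0.232, and 0.0417 without cUA 2A).

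LOC111324689 (Spis_XP_022784034_1) had the same order of medians, 166 CPM in seawater, 50.6 with cUA and 19.5 with cGAMP. Its lowest cUA library was 2A, at 21.02 CPM inside the cGAMP range of 10.4 to 26.7, and the other cUA libraries ran from 48.1 to 62.7. LOC111335485 (Spis_XP_022797124_1) followed it at 13.7, 5.33 and 0.424 CPM, with a log2 fold change between the compounds of 3.07 ± 0.57, and 3.26 ± 0.45 without cUA 2A. LOC111335118 (Spis_XP_022796710_1) departed from that order. Its median was 8.17 CPM with cUA and 2.24 with cGAMP, and the seawater median of 3.28 lay between them.

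**Figure D3:**
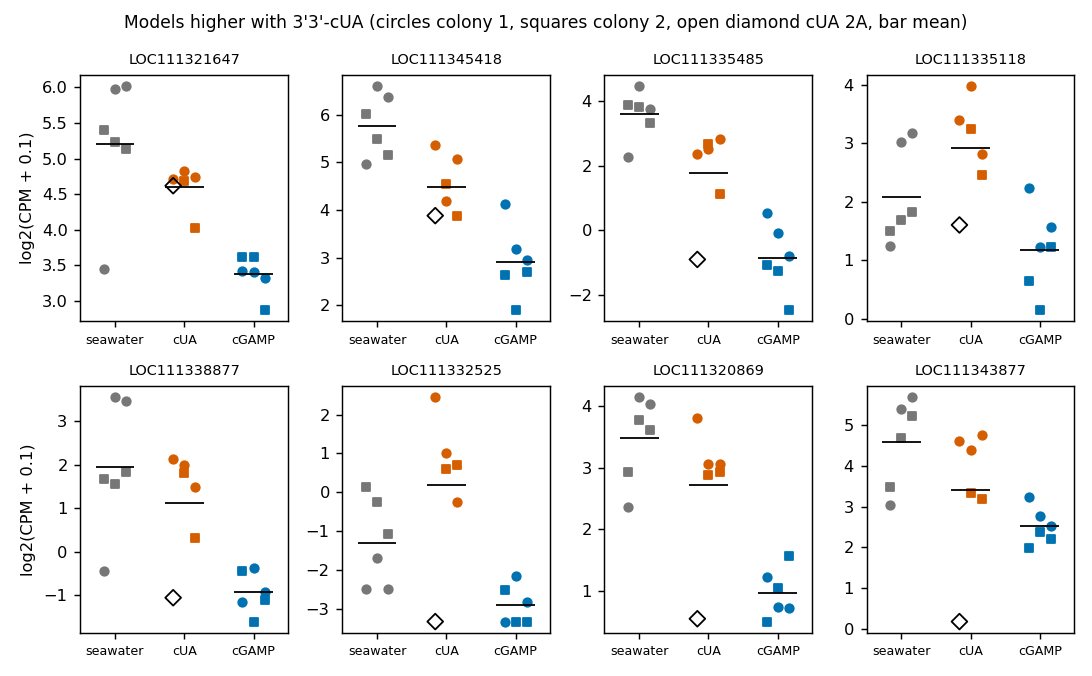
Level of 8 models higher with cUA in each of the 18 libraries, as log2(CPM + 0.1) by group, with circles for colony 1, squares for colony 2, an open diamond for cUA 2A and a bar at the mean. In LOC111321647 the cUA libraries (16.1 to 28.4 CPM) and cGAMP libraries (7.19 to 12.1 CPM) do not overlap, while in LOC111320869 cUA 2A (1.36 CPM) lies among the cGAMP libraries.

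Among models higher with cGAMP, LOC111336789 (Spis_XP_022798680_1) had the smallest p over all 12 libraries. It has 7 coding segments on the plus strand of NW_019218097.1, from 173191 to 181539. With cGAMP its levels were 32.0, 52.6 and 46.5 CPM in colony 1 and 79.4, 64.6 and 51.4 CPM in colony 2. With cUA they were 17.7, 21.8 and 20.6 CPM in colony 1 and 42.0, 23.6 and 18.5 CPM in colony 2. A single cUA library, 2A, lay inside the cGAMP range. The log2 fold change of cUA over cGAMP was -1.18 ± 0.22 (adjusted p = 0.232) and -1.34 ± 0.18 without cUA 2A (adjusted p = 0.0203). Seawater spread from 6.06 to 43.2 CPM and covered all of the cUA values.

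LOC111325533 (Spis_XP_022785096_1, a single coding segment on the plus strand of NW_019217856.1, 273367 to 275073) was next. Its cUA libraries stood at 3.21, 5.66 and 4.62 CPM in colony 1 and at 6.64, 6.40 and 6.16 CPM in colony 2. Its cGAMP libraries stood at 8.97, 12.6 and 20.5 CPM and at 24.7, 34.1 and 6.71 CPM. The groups met without overlapping, at 6.64 CPM in cUA 2A and 6.71 CPM in cGAMP 2C. Its log2 fold change was -1.71 ± 0.35 (adjusted p = 0.232), and -1.71 ± 0.37 without cUA 2A, where it narrowly missed the call (adjusted p = 0.0555). The seawater median of 1.54 CPM lay below both compounds, and the highest seawater library, at 5.13 CPM, lay among the cUA values.

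LOC111323461 (Spis_XP_022782544_1) ran from 2.15 to 3.69 CPM with cGAMP and from 0.820 to 1.40 CPM with cUA, above a seawater median of 0.676. LOC111325840 (Spis_XP_022785489_1) ran from 11.6 to 26.3 CPM with cGAMP and from 4.30 to 9.88 CPM with cUA. There the cUA median of 8.33 CPM was close to the seawater median of 7.80, and cUA against seawater, cUA 2A included, had a log2 fold change of 0.02 ± 0.24. LOC111344163 (Spis_XP_022807111_1) was the most abundant of these in its direction, with medians of 82.0 CPM in seawater, 225 with cUA and 790 with cGAMP. Its log2 fold change between the compounds was -1.74 ± 0.38 (adjusted p = 0.256), and it was not called without cUA 2A either (adjusted p = 0.0665).

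**Figure D4:**
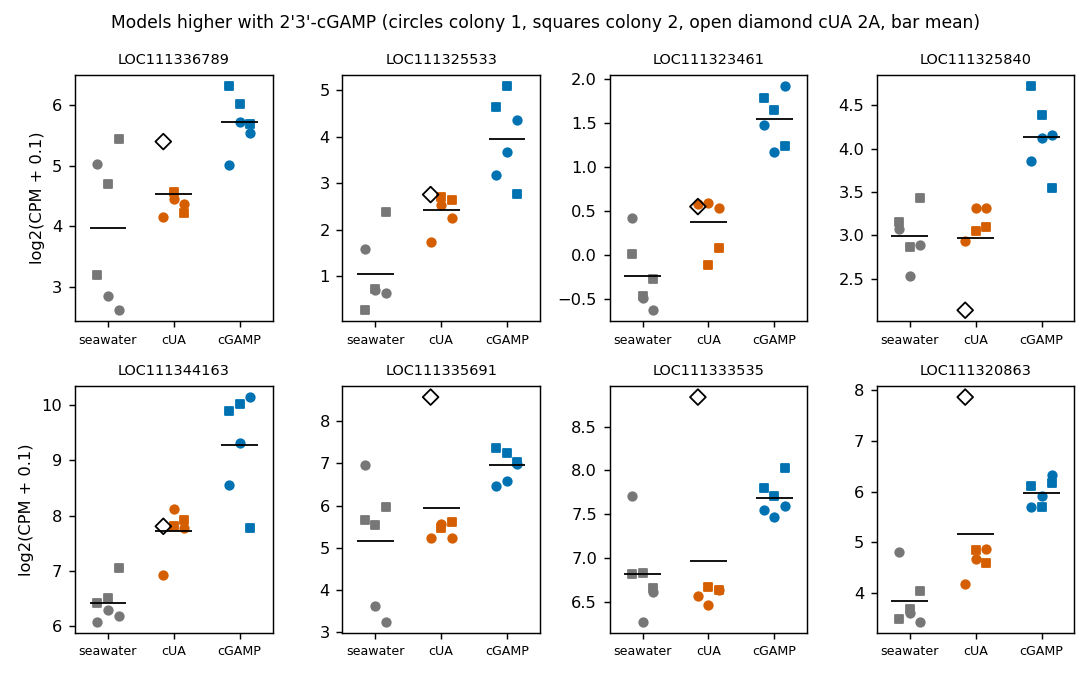
Level of 8 models higher with cGAMP in each of the 18 libraries, as log2(CPM + 0.1) by group, with circles for colony 1, squares for colony 2, an open diamond for cUA 2A and a bar at the mean. In LOC111336789 all cUA libraries but 2A (42.0 CPM) lie below the cGAMP range of 32.0 to 79.4 CPM, and in LOC111335691 cUA 2A (379 CPM) lies above it.

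The models with the smallest p without cUA 2A had levels in that library that lay among the cGAMP values or beyond them. LOC111335691 (Spis_XP_022797414_1, 32 coding segments on the plus strand of NW_019218062.1, 232265 to 251883) had the smallest p of that fit. Its cUA libraries stood at 37.7, 46.9 and 37.4 CPM in colony 1 and at 44.4 and 49.0 CPM in 2B and 2C, but at 379 CPM in 2A. The cGAMP libraries ran from 88.5 to 164 CPM. The log2 fold change was -1.49 ± 0.15 without cUA 2A (adjusted p = 0.00907) and -0.64 ± 0.49 with it (adjusted p = 0.774). In seawater the level spread from 9.46 to 124 CPM, with control 1A highest. LOC111333535 (Spis_XP_022794859_1, 6 coding segments on the minus strand of NW_019218005.1, 338302 to 365431) showed the same arrangement. It stood at 88.4 to 102 CPM in 5 cUA libraries, at 177 to 261 CPM with cGAMP and at 456 CPM in cUA 2A. Its log2 fold change was -1.07 ± 0.13 without that library (adjusted p = 0.0155) and -0.53 ± 0.35 with it (adjusted p = 0.718). cUA 2A was likewise above every cGAMP library in LOC111320863 (234 CPM), LOC111338487 (460 CPM) and LOC111338418 (556 CPM).

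In the other direction, LOC111320869 (Spis_XP_022779333_1, 6 coding segments on the plus strand of NW_019217806.1, 1212813 to 1216641) ran from 7.25 to 13.8 CPM in 5 cUA libraries and from 1.32 to 2.85 CPM with cGAMP. cUA 2A stood at 1.36 CPM, among the cGAMP libraries. Its log2 fold change was 2.22 ± 0.28 without cUA 2A (adjusted p = 0.0203) and 1.95 ± 0.42 with it (adjusted p = 0.244). LOC111332525 (Spis_XP_022793617_1, 4 coding segments on the plus strand of NW_019217979.1, 126878 to 130058) had from 26 to 174 counts in each of 5 cUA libraries and 0 in cUA 2A. With cGAMP it had 3, 1 and 2 counts in 1B, 1C and 2A and 0 in the other libraries. Its median was 0.0214 CPM with cGAMP and 1.47 CPM with cUA, and the seawater median of 0.296 CPM lay between them. Its log2 fold change without cUA 2A was 5.47 ± 0.75 (adjusted p = 0.0203), a fitted value that depends on the prior count.

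As sets, the 215 models were chosen by this very contrast, so their differences are given as a description. The 116 models higher with cUA had a median log2 fold change of 1.35 (0.60 to 5.47), and 86 were over 2-fold. The 99 higher with cGAMP had a median of 1.23 in size (0.55 to 3.99), with 76 over 2-fold. The median level of the first set was 9.01 CPM, next to 9.19 CPM over all tested models, while that of the second set was 50.6 CPM. Coding length and the number of coding segments were near those of all models in both sets: median 1188 and 1152 bases against 1176, and 5 and 4 segments against 5. A model of the same set was the neighbour, among tested models of a scaffold, of 6 of the 116 (5.17%, and 1.05% of all tested models) and of 10 of the 99 (10.1%, and 0.875% of all).

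Set beside seawater, the sets had the following values. The sets were chosen by the cUA and cGAMP levels in the fit without cUA 2A. That choice favours a low value of the lower compound and a high value of the higher one against seawater. Both comparisons with seawater use the same 6 control libraries and are given side by side only, as a description. They come from 1 fit of all 18 libraries, cUA 2A included, and then from the same fit without it. In the set higher with cUA the median log2 fold change against seawater was -0.53 with cUA and -1.63 with cGAMP. edgeR called 0 of the 116 higher and 20 lower with cUA, and 0 higher and 94 lower with cGAMP. In the set higher with cGAMP the medians were 0.05 with cUA and 0.69 with cGAMP. edgeR called 12 of the 99 higher and 1 lower with cUA, and 35 higher and 0 lower with cGAMP. Over all 20722 of the models that were tested there too, 1262 were called higher and 763 lower with cUA, and 1968 higher and 2396 lower with cGAMP. Without cUA 2A the medians in the set higher with cUA were -0.33 with cUA and -1.61 with cGAMP, with 2 called higher and 18 lower with cUA and 103 called lower with cGAMP. In the set higher with cGAMP the cUA median then turned below 0, to -0.48, with 10 called higher and 6 lower, and the cGAMP median was 0.70, with 43 called higher. The sign of cUA against seawater in that set therefore depended on cUA 2A. Over all 20796 models without cUA 2A, 1166 were called higher and 734 lower with cUA, and 2369 higher and 2750 lower with cGAMP.

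The library left out of that fit, cUA 2A, took no part in choosing the sets, and it did not follow the other cUA libraries in them. It was left out because it stands apart in composition. Its values are therefore a description and not an independent check of the sets. Against the mean of the colony 2 cGAMP libraries, cUA 2A lay lower in 79 of the 116 models higher with cUA (68.1%, and 51.3% of all tested models). It lay higher in 82 of the 99 models higher with cGAMP (82.8%, and 48.7% of all). The median difference of cUA 2A from those cGAMP libraries was -0.38 and 0.74 in log2 CPM, where that of cUA 2B and 2C, which helped to choose the sets, was 1.24 and -1.10. cUA 2A was the lowest of all 12 libraries in 56 of the 116 (48.3%, and 23.5% of all) and the highest in 58 of the 99 (58.6%, and 20.9% of all). Its composition factor was also the lowest of the 12, and the part of composition in this was not tested. Among the seawater libraries control 1A, with the lowest composition factor of the controls (0.714), lay above the other 5 in 78 of the 99 models (78.8%, and 29.5% of all) and in 14 of the 116 (12.1%).

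**Figure D5:**
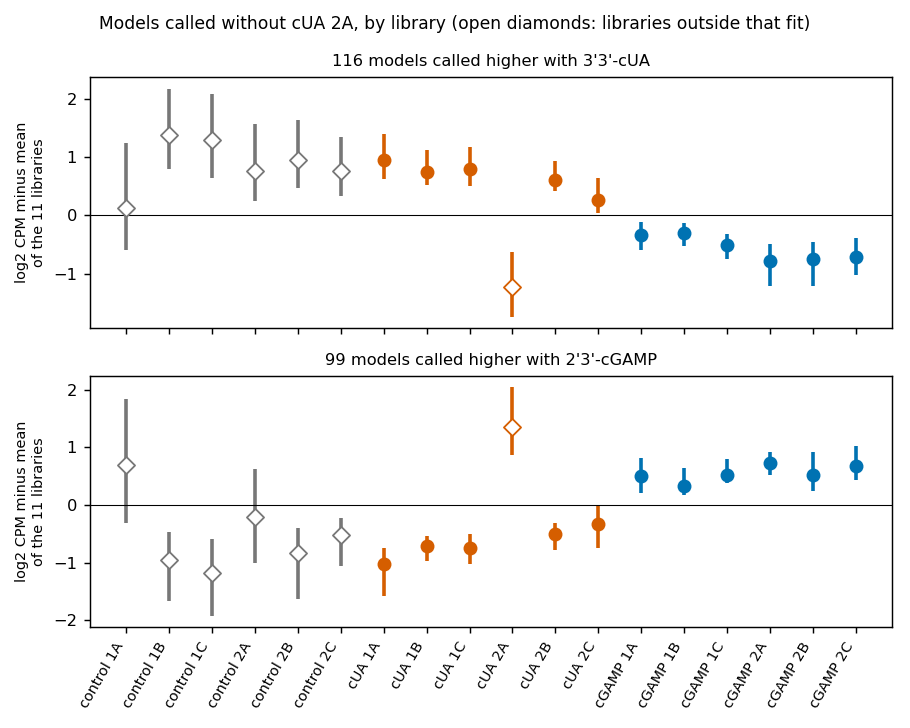
Median over models of log2 CPM minus the mean of the 11 libraries in the fit, for the 116 models higher with cUA and the 99 higher with cGAMP, in each of the 18 libraries; lines span the middle quartiles and open diamonds mark libraries outside the fit. The 5 cUA libraries that chose the sets lie from 0.27 to 0.96 in the first set and from -1.03 to -0.32 in the second, while cUA 2A lies at -1.22 and 1.36.

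The colonies were then taken apart. In colony 1 alone, with 3 libraries per compound, edgeR called 1755 of 19371 models (9.06%), 805 higher with cUA (4.16%) and 950 higher with cGAMP (4.9%), at a biological coefficient of variation of 0.293. In colony 2 alone it called 0 of 19054, with 533 at an unadjusted p below 0.05, a smallest adjusted p of 1.00 and a coefficient of 0.499. Of the 215 models called without cUA 2A, 177 were also called in colony 1 alone, which shares 6 of those 11 libraries. Of the 25 named models 22 were called in colony 1 alone, whose 6 libraries also took part in the fits that named them.

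Colony 2 gives a reading of the colony 1 models in libraries that took no part in choosing them. Of the 805 higher with cUA in colony 1, with a median log2 fold change of 1.31 there, 347 were higher with cUA in colony 2 (43.1%, and 48.0% of all models), at a median of -0.10. Of the 950 higher with cGAMP, 368 were higher with cGAMP in colony 2 (38.7%, and 52.0% of all), at a median of 0.11 against -1.07 in colony 1. Without cUA 2A the shares were 507 of 805 (63.0%, and 51.9% of all) and 598 of 950 (62.9%, and 48.1% of all), at medians of 0.21 and -0.14. The 3 colony 2 cUA libraries differed in this. Against the mean of the cGAMP libraries of their colony, the median over the 805 models was -0.71 in 2A, 0.44 in 2B and 0.09 in 2C, and over the 950 models it was 0.72, -0.40 and 0.11. cUA 2B thus lay on the side of colony 1 in both lists, 2A on the other side, and 2C near 0.

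Whether the difference between the compounds itself differed between colonies was tested as an interaction. edgeR called 0 of 20371 models (smallest adjusted p = 0.197), with an unadjusted p below 0.05 for 1660 models (8.15%) where cUA was relatively higher in colony 2 and 1431 (7.02%) where cGAMP was, and limma-voom 0 with or without sample weights. DESeq2 called 640, and edgeR 760 without cUA 2B. Among the 215 models, an unadjusted interaction p below 0.05 was found for 2 of the 116 higher with cUA (1.72%) and 31 of the 99 higher with cGAMP (31.3%), against 15.2% of all tested models. Without cUA 2A edgeR again called 0 models for the interaction (0%, smallest adjusted p = 0.190), with 3447 of 20796 at an unadjusted p below 0.05 (16.6%). The shares were then 3 of the 116 (2.59%) and 11 of the 99 (11.1%). Both sets were chosen from 11 of these same libraries, and all their models had the same sign in both colonies there. That choice favours a low interaction share, so the shares of the sets are a description only.

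Cglr2 (Spis_XP_022802921_1, a single coding segment of 2142 bases on the minus strand of NW_019218231.1, 193575 to 195716) carries the symbol of a cGAS-like receptor, the enzyme family that makes such dinucleotides. Its level was 5.05 ± 1.94 CPM with cUA, 5.97 ± 2.21 with cGAMP and 3.87 ± 1.83 in seawater (SD, n = 6). The groups overlapped, from 2.56 to 7.51 CPM with cUA and from 3.62 to 8.58 CPM with cGAMP. The log2 fold change of cUA over cGAMP was -0.16 ± 0.29 (95% interval -0.80 to 0.47, edgeR adjusted p = 0.940). Without cUA 2A it was -0.07 (95% interval -0.66 to 0.53, adjusted p = 0.930). Both intervals are for 1 difference fitted over both colonies, and they exclude a 2-fold difference for that value only. Fitted in each colony alone the log2 fold change was -0.57 ± 0.26 and 0.25 ± 0.51 (SE), with no call. In colony 1 the cUA libraries, at 4.04, 4.75 and 7.23 CPM, all lay below the cGAMP libraries, at 7.53, 7.69 and 8.58 CPM. In colony 2 the groups overlapped. Whether a 2-fold difference is excluded within a single colony was not tested.

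The mitochondrial scaffold NC_011162.1 holds 13 models, which the files do not name, and 12 passed the filter. The span of Spis_YP_002149701_1 runs from 2008 to 14429, mostly outside its 1839 coding bases in 2 segments, and overlaps those of 10 others. Spis_YP_002149702_1, Spis_YP_002149703_1, Spis_YP_002149704_1 and Spis_YP_002149707_1 overlap no other besides it, and Spis_YP_002149712_1 and Spis_YP_002149713_1 overlap none. The treatment of reads that fall in more than 1 model is not stated in the sources used here. Counts among these models therefore cannot be taken as counts of independent readings. All 12 had fold changes below 0, from -2.23 to -0.31 with a median of -0.75 on the log2 scale, and 6 had an unadjusted p below 0.05, as had 611 of all 20371 models in that direction (3%). None was called by edgeR with all 12 libraries. Without cUA 2A all 12 again lay below 0, from -2.47 to -0.32 with a median of -1.04. There 10 had an unadjusted p below 0.05, against 8.23% of all models in that direction, and 1 was called, Spis_YP_002149709_1 (11786 to 12622), at -2.47 ± 0.42 on the log2 scale (edgeR adjusted p = 0.0294). It is a model of few reads, from 0.158 to 0.436 CPM with cUA and from 0.733 to 2.63 CPM with cGAMP, and the groups did not overlap.

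The summed mitochondrial level is given by colony. In colony 1 it was 94.7, 95.2 and 91.6 CPM with cUA and 405, 272 and 244 CPM with cGAMP, and the seawater libraries at 164, 178 and 159 CPM lay between. In colony 2 it was 269, 114 and 203 CPM with cUA and 161, 160 and 152 CPM with cGAMP, with seawater at 138, 95.3 and 92.6 CPM. In colony 1 the groups were far apart, while in colony 2 the cUA libraries lay on both sides of the cGAMP ones. All 12 tested models were called lower with cUA in colony 1 alone, where 4.9% of all models were, and 0 were called in colony 2 alone. The interaction had an unadjusted p below 0.05 for 11 of the 12, in all of them with cUA relatively higher in colony 2, against 8.15% of all models in that direction and 15.2% in both. None passed the adjusted test (smallest adjusted p = 0.197). Without cUA 2A it was below 0.05 for 10 of the 12 (smallest adjusted p = 0.190). The spans of most of the 12 overlap others on the same scaffold, and how many reads their coding segments share was not measured. The 12 therefore cannot be taken as independent readings, as the share over all models might imply. cUA 2A and 2C and cGAMP 1A, with shares of 24.4%, 22.7% and 22.3% in their 50 most abundant models, had summed levels of 269, 203 and 405 CPM. Control 1A, with a share of 22.7%, lay at 164 CPM, below control 1B at 178 CPM. Before TMM scaling, mitochondrial models with cUA held 0.0112%, 0.0111% and 0.0106% of counts in colony 1 and 0.0166%, 0.0127% and 0.0175% in colony 2. With cGAMP they held 0.0359%, 0.0270% and 0.0224% in colony 1 and 0.0153%, 0.0157% and 0.0148% in colony 2. The part of composition in this was not tested.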

How the data were processed

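RNA was taken from coral specimens, polyadenylated RNA enriched and directional libraries made, per the labels' protocols. The authors deposited raw read counts per gene model. The tools were STAR, featureCounts and DESeq2, per the submitters' processing notes. Settings, strandedness and build are not given in those notes or elsewhere in the labels, so reads of near-identical or overlapping models may have been split or lost. All 18 columns were matched to their labels. Chi-square per degree of freedom was at least 19.9 for every pair of libraries in a group, so none was a repeat. The labels do not say how independent specimens of a colony are, so p-values speak only to the spread among these specimens.

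Counts were analysed in R 4.3.3 with edgeR 4.0.16 (filterByExpr by compound and colony, TMM factors, robust quasi-likelihood fits, colony as covariate, Benjamini-Hochberg adjustment over all tested models, called at an adjusted p below 0.05), after a test on simulated data. All adjusted p-values of single models are from edgeR unless stated. Seawater libraries entered the levels, scaled over 18 libraries, and a separate fit of colony and treatment. DESeq2 1.42.0, limma-voom (limma 3.58.1), other scalings, filters, samples and designs were alternatives. Log2 CPM used a prior count of 2. Symbols came from the RefSeq gene table of the assembly jaStyPist1.2, matched by accession for 13548 of 29419 models, with no coordinates taken from it. Of 22 lists of pathway and marker genes 1 had a single member, Cglr2, so none was described, and no protein or promoter sequence was used here.

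Named models are, per fit and direction, the 8 with the smallest p, a mean of at least 1 CPM, the same sign in both colonies and a symbol. The 2 per direction and fit with the smallest p are described in full, and Cglr2 and the mitochondrial models were added for their annotation. Others described were picked from these after their values were seen. Members, lists and the rule were chosen with earlier results of these data known.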

Additional observations from a re-analysis of the deposited data

Results flagged for a closer look

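Within each group of 6 libraries the highest and lowest value of each named model and of the library measures was checked for a gap from the rest by Dixon's criterion. Of 126 such groups 17 held a library far from the others, and 11 of the 17 were cUA 2A. A rate of 1 in 20 would give about 6.3, but it does not apply to these groups. They share libraries, and models named without cUA 2A were picked in a fit that left it out.

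Library cUA 2A was far above the other cUA libraries in 6 models, all higher with cGAMP. Its level was 379 CPM in LOC111335691, 456 in LOC111333535, 234 in LOC111320863, 460 in LOC111338487, 556 in LOC111338418 and 42.0 in LOC111336789. It was far below them in LOC111324689 (21.02 CPM), LOC111320869 (1.36 CPM), LOC111343877 (1.03 CPM) and LOC111344425 (0.436 CPM), which are higher with cUA, and in LOC111325840 (4.30 CPM), which is higher with cGAMP. In 10 of these 11 models it thus departed towards or past the cGAMP values. Models named without cUA 2A were selected in a fit that left it out.

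Among the other cUA libraries, 2C stood low in LOC111321647 at 16.1 CPM, and 1A stood low in LOC111344163 at 121 CPM. With cGAMP, 1A stood high in the mitochondrial model Spis_YP_002149703_1 at 28.7 CPM. Control 1A stood apart from the other seawater libraries in LOC111321647 (10.8 CPM, low), in its composition factor (0.714, low) and in the share of counts in its 50 most abundant models (22.7%, high).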

How the results depend on the processing

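With all 12 libraries edgeR called 0 models under every other scaling, filter and design tried, with limma-voom unweighted and with the seawater libraries in the fit. DESeq2 called 151, limma-voom with sample weights 1622 and edgeR 1755 in colony 1 alone, and the count ran from 0 to 215 on leaving out each library. Without cUA 2A it was 215, against 1699 by DESeq2, 2484 by weighted limma-voom, 430 with total counts alone, 45 with the seawater libraries in the fit, 1755 in colony 1 alone, 0 in colony 2 alone and from 0 to 1242 on leaving out a further library: 0 without cUA 1A or cGAMP 1C, 1 without cUA 1B or cGAMP 1B, 6 without cUA 1C, 16 without cUA 2B, 1242 without cUA 2C, 65 without cGAMP 1A, 43 without cGAMP 2A, 338 without cGAMP 2B and 104 without cGAMP 2C. Leaving control 1A out of the fit with seawater gave 729. That alternative, those within colonies without cUA 2A, and all values without cUA 2A for leaving out a further library (the count within 2-fold and the named models included), for the interaction by set and against seawater were chosen after seeing the data. The sample numbers did not pair the libraries: same-numbered libraries of the compounds had correlations of their deviations from -0.457 to 0.125. With colony and number as a replicate block the count was 0 with all 12 libraries and 0 without cUA 2A. The cause of these shifts was not tested.

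The interaction count was 640 with DESeq2 and from 0 to 760 on leaving out each library, with 760 without cUA 2B. The number of models bounded within 2-fold was 8766 of 19371 in colony 1 alone and 3418 of 19054 in colony 2 alone. In colony 2 without cUA 2A it was 4266 of 19672. All 3 of these fits used fewer libraries than the main ones, and the cause of the difference between colonies was not tested. On leaving out each library the number ran from 10148 to 11013 and, without cUA 2A, from 9982 to 10590. The pseudo-F ran from 0.928 to 1.99 on leaving out each library (exact permutation p from 0.1 to 0.52), and by Spearman distance it was 0.583 with all libraries (p = 0.63) and 2.65 without cUA 2A (p = 0.1, exact permutation).

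In colony 2 alone the sign turned for Cglr2 (0.25) and, among mitochondrial models, for Spis_YP_002149701_1 (0.56), Spis_YP_002149702_1 (0.037), Spis_YP_002149703_1 (0.80), Spis_YP_002149704_1 (0.20), Spis_YP_002149705_1 (0.52), Spis_YP_002149706_1 (0.16), Spis_YP_002149707_1 (0.57), Spis_YP_002149710_1 (0.12) and Spis_YP_002149713_1 (0.22), as log2 fold changes, none called. On leaving out each library Spis_YP_002149703_1 ran from -0.76 to 0.011, above 0 without cGAMP 1A. No LOC model changed sign under the alternatives to the fit that named it. Naming required the same sign in both colonies, so the fits within colonies could hardly turn a LOC model. With cUA 2A kept, however, 3 LOC models named without it turned in colony 2 alone: LOC111335691 (0.069), LOC111320863 (0.57) and LOC111338487 (0.033), none called. For those of the fit with all libraries 340 values kept their side of the threshold and 59 became calls, and for those without cUA 2A 275 kept theirs and 125 lost the call. Intervals were widest below 1 CPM, at a median of 1.09 to each side.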
